A study of Mus musculus with 10 samples.

Results

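The genes described here encode the enzymes that remove superoxide and hydrogen peroxide directly: the superoxide dismutases Sod1, Sod2 and Sod3, the catalase Cat and the peroxiredoxins Prdx1, Prdx2, Prdx3, Prdx4, Prdx5 and Prdx6. The rule that picks them is a list of names and uses no measured value, but the family was put forward with earlier results of these data known. The 10 genes stand among 56748 genes in the count tables, and all 10 were among the 15454 genes with enough counts to be tested. Whole hearts with ventricles and both atria were taken from wild-type male C57BL/6 mice bought at 8 weeks of age. The 5 training mice ran on a motor-driven treadmill at 15 m/min for 120 min a day on 5 days a week for 8 weeks, after acclimatization, and the 5 sedentary mice served as controls without training. RNA of each heart gave 1 library. No transgene is named for either group. By the methods of the study, training and sedentary animals alike were imaged by PET under isoflurane anaesthesia after an injection of the glucose tracer 18F-FDG, an exposure that the groups shared. The comparison asks how the hearts of trained and sedentary mice differ in these transcripts.

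Superoxide arises mainly at the mitochondrial respiratory chain and from NADPH oxidases, and superoxide dismutases convert it to hydrogen peroxide. Catalase, which sits mostly in peroxisomes, breaks hydrogen peroxide down to water and oxygen. Peroxiredoxins reduce it at a reactive cysteine that is then restored, for most members of the family, by thioredoxin and thioredoxin reductase with electrons from NADPH. In the heart, where mitochondria fill a large part of each cardiomyocyte, these enzymes work in separate compartments: Sod2, Prdx3 and part of Prdx5 in mitochondria, Sod1, Prdx1, Prdx2 and Prdx6 mainly in the cytosol, Prdx4 in the endoplasmic reticulum and Sod3 outside the cell.

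Libraries held between 29461697 and 35945417 counts on genes in training hearts and between 35196993 and 39431030 in sedentary hearts. Summed markers of some heart cell types differed between the groups as well. The summed level of 8 atrial markers ranged from 4904 to 7334 CPM (counts scaled by TMM-adjusted library size) in training and from 2963 to 6736 CPM in sedentary hearts, where the highest value belonged to sedentary heart 1. The sum of 8 cardiomyocyte markers ranged from 61385 to 65176 and from 64516 to 74086 CPM, that of 8 fibroblast markers from 2856 to 3802 and from 2617 to 2980 CPM, and that of 8 endothelial markers from 855.9 to 915.8 and from 943.9 to 987.5 CPM. Training and sedentary hearts did not overlap for the endothelial sum, but they overlapped for the atrial, cardiomyocyte and fibroblast sums. They also overlapped for the sum of smooth muscle and pericyte markers (1226 to 1397 and 1251 to 1438 CPM). The same held for macrophage markers (246.8 to 308.7 and 262.4 to 321.3 CPM) and adipocyte markers (23.79 to 232.4 and 20.57 to 152.5 CPM). None of these markers was at 0 in every heart. Their part in the results below was not tested beyond 1 fit that held an atrial marker score, and in whole-heart RNA fewer cells of a type and less RNA per cell cannot be told apart.

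The regulatory sequence of the gene whose transcript changed, Cat, and of a pair of genes with an antioxidant response element core is shown for context. Promoter windows from 250 bases before to 50 bases after the transcription start were held by RefSeq's table for 8 of the 10 genes, all but Sod3 and Prdx6. The box CCAAT, which the factor NF-Y binds, was searched on both strands and was found in 37.4% of all 32851 windows and in 4 of the 8, those of Sod1, Sod2, Cat and Prdx4. The Cat gene lies at 2:103284194-103316185 (ENSMUSG00000027187, minus strand, GRCm39) and its window at 2:103315449-103315748. Like the windows of Sod2, Prdx1, Prdx2, Prdx4 and Prdx5, this window lies inside the annotated gene, so the starts used are not the outermost. The windows of Sod1 and Prdx3 lie partly outside their genes. The Cat stretches around the matches at −55 and −13 and the Sod1 stretch shown further below overlap annotated untranslated or coding sequence. The Cat window held 4 matches, shown in capitals and written as ATTGG where the box lies on the other strand.
Cat, chr2:103315565-103315748: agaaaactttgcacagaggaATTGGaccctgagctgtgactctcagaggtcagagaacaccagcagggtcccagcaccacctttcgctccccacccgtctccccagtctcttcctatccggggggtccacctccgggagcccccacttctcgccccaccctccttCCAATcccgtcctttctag
Cat, chr2:103315539-103315563: gttccagtggCCAATcaggaggcgg
Cat, chr2:103315497-103315521: ggcggtgctgATTGGtggagcctga
These matches begin at −230, −85, −55 and −13 relative to the start.

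The core of the antioxidant response element, TGACNNNGC, which the factor NRF2 binds with small Maf proteins, was found on either strand in 12.4% of all windows and in 2 of the 8, those of Sod1 and Prdx1. Both matches lie on the strand opposite to the gene, so that the capitals below spell the core backwards and complemented.
Sod1, chr16:90017584-90017612, plus strand, GRCm39: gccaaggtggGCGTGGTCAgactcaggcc
Prdx1, chr4:116542653-116542681, plus strand, GRCm39: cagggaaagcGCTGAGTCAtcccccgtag
The GC box GGGCGG, which Sp1 binds, was found in 35.7% of all windows and in 8 of the 8, whose GC content lay between 57.0% and 68.7% against a median of 52.7% over all windows. The FOXO motif TGTTTAC was found in 3.65% of all windows and in none of the 8. A match describes the letters of the window only.

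Catalase was lower in training hearts, and it was the only one of the 10 genes that passed the test. Cat was at 215.7, 230.1, 220.7, 231.2 and 246.4 CPM in training hearts 1 to 5 and at 267.1, 254.3, 264.5, 267.8 and 254.4 CPM in sedentary hearts 1 to 5. Every training heart lay below every sedentary heart. Means were 228.8 ± 11.77 and 261.6 ± 6.748 CPM (SD, n = 5 each), and Cat fell by 0.19 on the log2 scale with a standard error of 0.04 and an adjusted p of 0.0281 (edgeR's quasi-likelihood test, p adjusted after Benjamini and Hochberg). This is a change of −12.54%, with a 95% interval from −17.82% to −6.911%. Among the genes called, 25.95% of those called lower fell by less than Cat did, and the median size of the log2 fold change of all called genes was 0.26.

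The count of 1 member called, in the lower direction, stands beside a background of 1084 of 15454 tested genes called, or 7.01%. Genes called lower made up 4.26% and genes called higher 2.75% of those tested. With library totals in place of TMM the split over all genes turned from 425 higher and 659 lower to 1029 higher and 339 lower, and the median of all genes moved to 0.05 on the log2 scale. Under that scaling Cat was at −0.14 with an adjusted p of 0.1068 in edgeR's quasi-likelihood test. With a score of the atrial markers in the fit Cat was at −0.21 with an adjusted p of 0.2293 in the same test, and 33 genes were called in all. Leaving out any 1 heart kept Cat called, with values from −0.22 to −0.17.

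**Figure D1:**
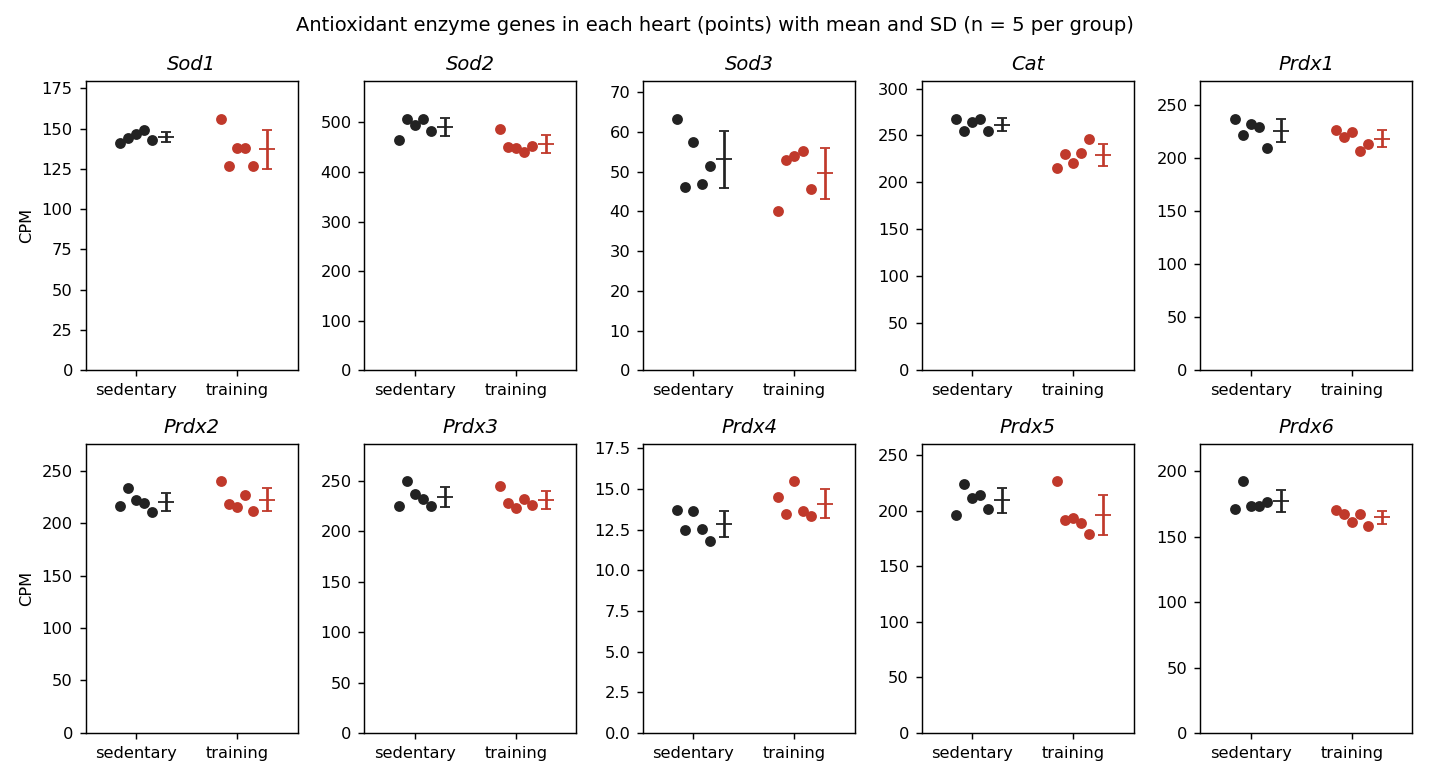
CPM of each of the 10 genes (vertical axes, from 0) in the 5 sedentary (black) and 5 training (red) hearts, with the mean and SD of each group beside the points. The training hearts lie below the sedentary hearts without overlap for Cat and Prdx6 and overlap with them for the other 8 genes.

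The mitochondrial superoxide dismutase Sod2 (ENSMUSG00000006818, 17:13224095-13259591) was at 486.6, 450.5, 447.8, 439.6 and 452.5 CPM in training hearts 1 to 5 and at 463.6, 507.3, 494.9, 506.7 and 483.3 CPM in sedentary hearts 1 to 5. The groups overlapped through training heart 1, which lay above sedentary hearts 1 and 5, while the other 4 training hearts lay below every sedentary heart. Sod2 had a log2 fold change of −0.11 with a standard error of 0.04 and a 95% interval from −0.20 to −0.02, and an adjusted p of 0.1667 (edgeR's quasi-likelihood test, p adjusted after Benjamini and Hochberg). DESeq2 gave an adjusted p of 0.09711 for it, just inside the threshold of 0.1. Sod2 was at −0.06 with library totals, −0.07 with the atrial score in the fit and −0.08 with RSEM's expected counts. It passed under none of these settings.

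The copper and zinc enzymes did not pass the test. Sod1, the cytosolic dismutase (ENSMUSG00000022982, 16:90017408-90027657), was at 156.1, 126.9, 137.7, 138 and 126.9 CPM in training hearts and at 141.3, 144.3, 146.5, 149.1 and 142.8 CPM in sedentary hearts. Of the training hearts 4 lay below every sedentary heart and 1, training heart 1, above every one, and the log2 fold change was −0.08 (95% interval from −0.19 to 0.04). Sod3, the secreted dismutase that binds to the matrix around vessels (ENSMUSG00000072941, 5:52521070-52528883), was at 40.06, 52.89, 53.92, 55.22 and 45.67 CPM in training and at 63.34, 46.16, 57.44, 46.92 and 51.56 CPM in sedentary hearts. It varied most between hearts of a group, with a standard error of 0.10 on a log2 fold change of −0.10, and the groups overlapped over most of their range.

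Prdx6 (ENSMUSG00000026701, 1:161051417-161079098), a cytosolic peroxiredoxin which has a single reactive cysteine and is restored by glutathione, did not pass the test. It was at 170.4, 167.5, 161.4, 167.5 and 158.4 CPM in training and at 171.4, 192.3, 173.5, 173.9 and 176.4 CPM in sedentary hearts. The groups did not overlap, with the highest training heart just below the lowest sedentary heart, and the log2 fold change of −0.10 (95% interval from −0.19 to −0.02) had an adjusted p of 0.1739 (edgeR's quasi-likelihood test, p adjusted after Benjamini and Hochberg). The value depended on the processing, at −0.05 with library totals, −0.04 with the atrial score in the fit and −0.11 with RSEM's expected counts. On the TPM scale, which also divides by transcript length, the mean was higher in training (162.7 ± 3.896 TPM) than in sedentary hearts (157.6 ± 8.14 TPM). Why the TPM means ran the other way was not tested. Groups that do not overlap in CPM were seen for 2 of the 10 genes, Cat and Prdx6, both lower in training, against 5.06% of all tested genes, 2.94% in the lower and 2.12% in the higher direction.

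Prdx1 and Prdx2, the other cytosolic members, differed little. Prdx1 (ENSMUSG00000028691, 4:116532123-116558398) was at 226.1, 219.4, 224.3, 206.1 and 213.4 CPM in training and at 236.7, 221.5, 231.4, 229 and 209.1 CPM in sedentary hearts. Prdx2 (ENSMUSG00000005161, 8:85693354-85702350), the form most abundant in red blood cells, was at 239.7, 218.2, 215.4, 226.7 and 211.6 CPM in training and at 216.5, 233.9, 221.6, 219.3 and 210.6 CPM in sedentary hearts. The groups overlapped for both. Their log2 fold changes were −0.05 (95% interval from −0.14 to 0.04) for Prdx1 and 0.01 (from −0.08 to 0.11) for Prdx2. With library totals as the scaling the values of Prdx1 and Prdx3 lay just above 0. Summed erythroid markers ranged from 39.16 to 98.94 CPM in training and from 60.37 to 142 CPM in sedentary hearts.

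Prdx3 (ENSMUSG00000024997, 19:60852489-60863017), the peroxiredoxin of the mitochondrial matrix, was at 245.2, 228.1, 223.1, 232.1 and 226 CPM in training and at 225.2, 249.5, 237.5, 232 and 225.2 CPM in sedentary hearts. Prdx5 (ENSMUSG00000024953, 19:6884065-6887792), found in mitochondria, peroxisomes and cytosol, was at 226.5, 191.5, 193.5, 189.3 and 178.8 CPM in training and at 195.9, 224.1, 211.8, 214.2 and 201.7 CPM in sedentary hearts. For Prdx5 training heart 1 lay above every sedentary heart and the other 4 below every one, as for Sod1. The log2 fold changes were −0.02 (95% interval from −0.11 to 0.07) for Prdx3 and −0.10 (from −0.22 to 0.03) for Prdx5, and neither passed the test.

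Prdx4 (ENSMUSG00000025289, X:154106813-154123750), the peroxiredoxin of the secretory pathway, was the one with the largest positive value. It was at 14.52, 13.46, 15.47, 13.63 and 13.37 CPM in training and at 13.71, 12.5, 13.63, 12.55 and 11.81 CPM in sedentary hearts, from 403 to 578 counts a library. The groups overlapped, the log2 fold change was 0.13 (95% interval from 0.00 to 0.27), and the adjusted p was 0.24 (edgeR's quasi-likelihood test, p adjusted after Benjamini and Hochberg). With a score of the atrial markers in the fit the value was 0.02.

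**Figure D2:**
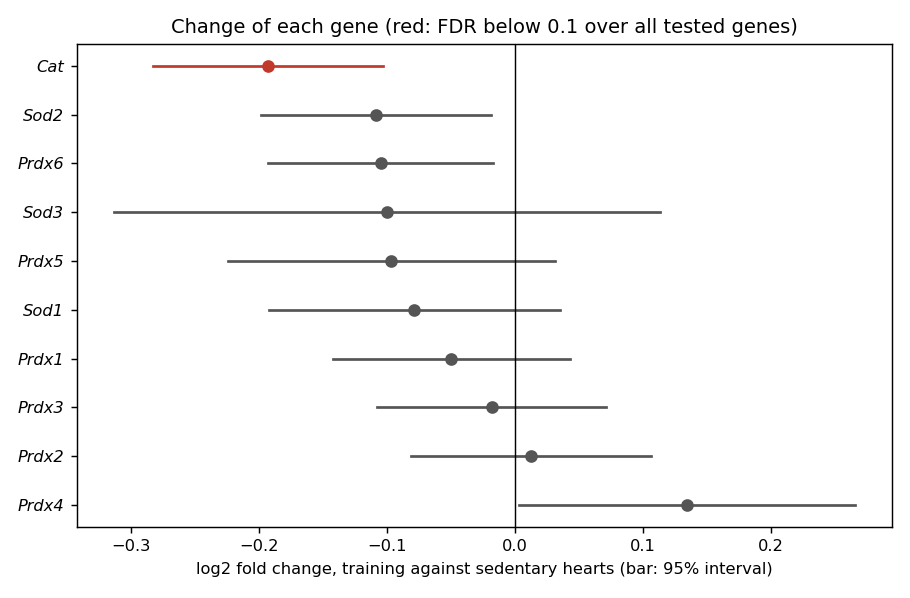
Log2 fold change of each gene, training against sedentary hearts (horizontal axis), with 95% intervals from the edgeR fit, ordered by value, the gene past an FDR of 0.1 in red. Cat, at −0.19, is the only red point, and the points run from there to 0.13 for Prdx4.

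Over the 10 genes, 8 log2 fold changes were below 0, against 49.9% of all tested genes, and the median was −0.09 against 0.00 for all tested genes. With library totals 6 of the 10 were below 0, the median was −0.03 and that of all genes 0.05. With the atrial score in the fit 7 were below 0, and with RSEM's expected counts 8 were. On the TPM scale 5 of the 10 had a lower mean in training hearts, among them Sod1 with nearly equal means (261 against 261.1 TPM). An unadjusted p under 0.05 was found for 4 of the 10, Sod2, Cat, Prdx4 and Prdx6, against 20.0% of all tested genes. The standard errors of the 10 lay between 0.04 and 0.10, where the median over all tested genes was 0.08.

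Training heart 1 and sedentary heart 1 stood at the edges of their groups for many of these genes. Training heart 1 was the highest training heart for 7 of the 10, Sod1, Sod2, Prdx1, Prdx2, Prdx3, Prdx5 and Prdx6, and the lowest for Sod3 and Cat. Sedentary heart 1 was the lowest of its group for 5, Sod1, Sod2, Prdx3, Prdx5 and Prdx6, and the highest for Sod3, Prdx1 and Prdx4. The edge position was not particular to these genes. The summed level of 12 genes of mitochondrial content was highest of the training hearts in training heart 1 (16683 CPM). That sum was lowest of the sedentary hearts in sedentary heart 1 (14836 CPM). A link between the patterns was not tested. Without training heart 1 the called members were Sod2, Cat and Prdx5, and without sedentary heart 1 they were Sod2 and Cat. Without both, 4 of the 10 were called lower, Sod1 (−0.14), Sod2 (−0.15), Cat (−0.16) and Prdx5 (−0.18). Of all tested genes 6.348% were called without training heart 1, 9.575% without sedentary heart 1 and 9.363% without both. Both hearts were picked for this setting after the values of these same genes were seen, so that the count of 4 is a description and carries no weight as a test.

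**Figure D3:**
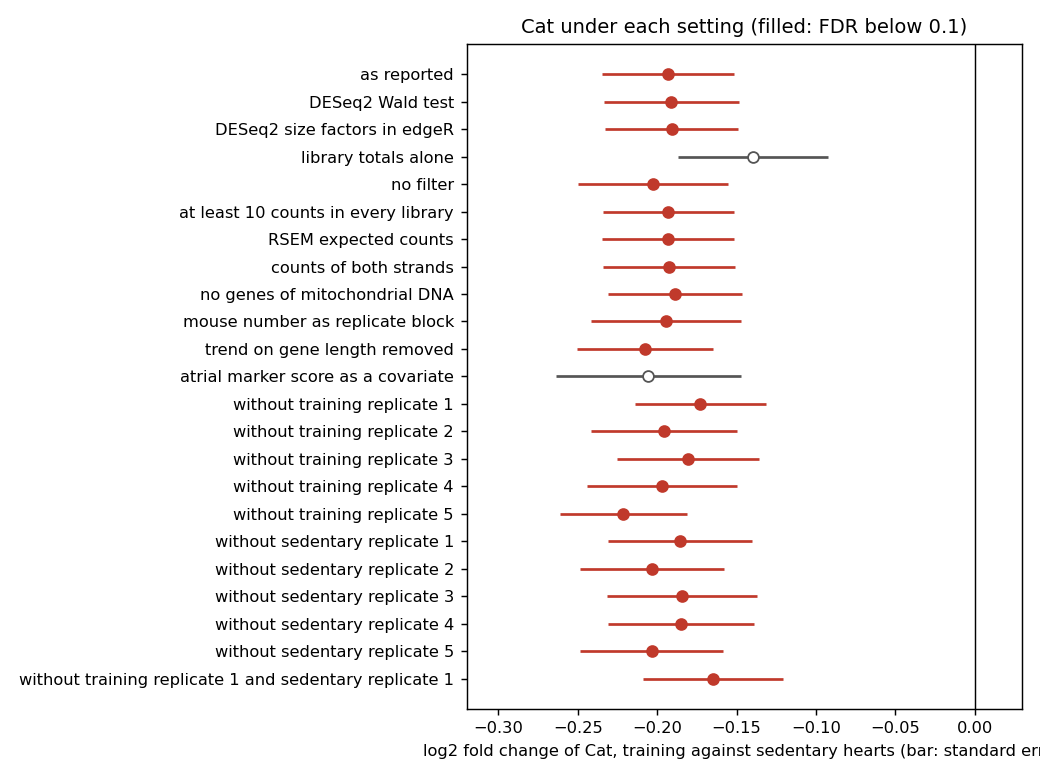
Log2 fold change of Cat with its standard error (horizontal axis) under each setting of the processing (rows), filled red where Cat passed an FDR of 0.1. Cat lies below 0 in every row drawn, and the open points are the rows with library totals and with the atrial marker covariate.

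Levels can be compared between genes only per length, for which the TPM values of RSEM were used. These divide counts by transcript length and then scale the divided values of each heart to the same total. Sod2 led with 345 ± 15.96 TPM (SD over 10 hearts), followed by Prdx5 with 321.3 ± 17.58, Prdx2 with 293.6 ± 11.89, Sod1 with 261 ± 12.79 and Prdx1 with 250 ± 14.34 TPM. Prdx3 was at 169.5 ± 7.945, Prdx6 at 160.2 ± 6.591 and Cat at 105.2 ± 10.69 TPM, and Prdx4 and Sod3 were far lower with 15.12 ± 1.828 and 14.73 ± 2.327 TPM. Neighbours in this order kept it in at least 9 of the 10 hearts, except Sod1 and Prdx1, in that order in 7 of 10, and Prdx4 and Sod3, in that order in 5 of 10. Together the 10 genes made up between 1850 and 2021 TPM of a heart, 17.82% of it from Sod2 and 5.435% from Cat on the average. Their sum was 1922 ± 44.29 TPM in training and 1949 ± 71.52 TPM in sedentary hearts.

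**Figure D4:**
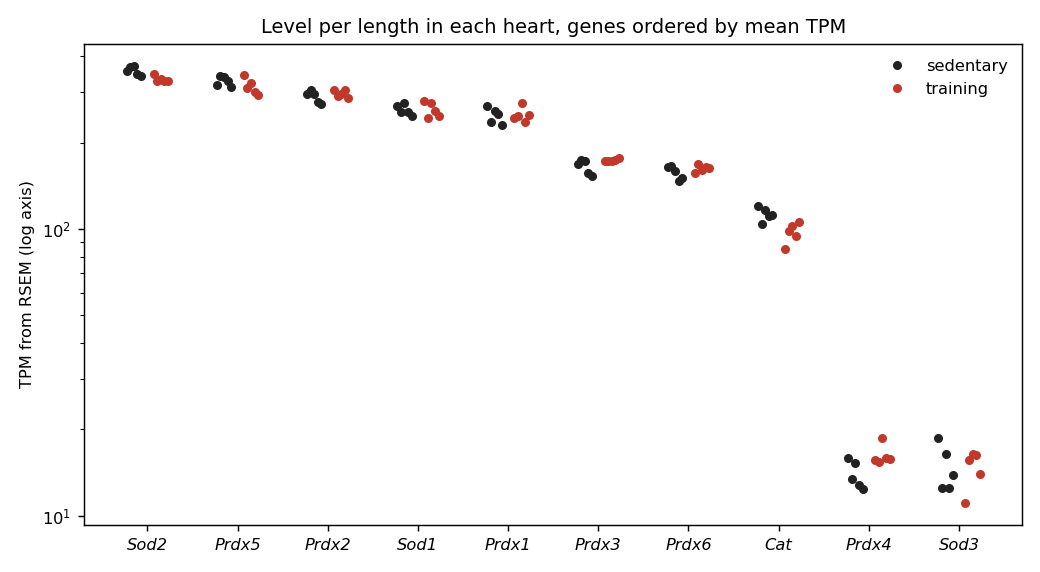
TPM from RSEM (log axis) of each gene in the 10 hearts, genes ordered by their mean, sedentary hearts in black and training hearts in red. The first 5 genes lie between 231.2 and 371 TPM, Cat lies between 85.27 and 120.4 TPM, and Prdx4 and Sod3 lie together at the bottom.

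Copies of these genes and genes on the opposite strand can affect the counts. Named copies exist for Prdx1 (Prdx1-ps), Prdx2 (Prdx2-ps1 and Prdx2-ps2) and Prdx6 (Prdx6b and Prdx6-ps2), whose values are uncertain to the extent that reads match more than 1 place. Unique counts came to a median of 94.22% of RSEM's expected counts for Sod2 and of 97.47% for Prdx2, and to at least 99% for the others. Prdx5 shares exon sequence with Trmt112 on the opposite strand and had the highest share of reads on the other strand, 2.173%. Exons of Sod1, Prdx2 and Prdx4 also overlap counted genes on the opposite strand. With both strands counted Prdx2 was at 0.035 and Prdx5 at −0.09.

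Across the 10 hearts, with the group means removed, several of the genes varied together. The correlation of log2 CPM was 0.94 between Prdx2 and Prdx3, 0.87 between Prdx2 and Prdx5 and 0.87 between Sod2 and Prdx5. It was −0.89 between Sod2 and Sod3 and −0.72 between Cat and Prdx5. These values share their libraries and scaling and rest on 10 hearts. The genes most like Cat over the 10 hearts, with groups not removed and among 13107 genes, were Myorg (r = 0.98), Tacc2 (0.98) and Bltp3b (0.97). With the group means removed their correlations with Cat were 0.93, 0.89 and 0.90.

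The genes that feed or surround these enzymes were taken as 9 lists with 114 genes. Of the 113 tested, 7 were called lower and 1 higher, together 7.08%, close to the 7.01% of all tested genes. In the thioredoxin system, which restores most peroxiredoxins, 1 of 15 was called. Txn2, the mitochondrial thioredoxin that serves Prdx3, was lower with 153.1 ± 3.888 CPM in training and 172 ± 6.546 CPM in sedentary hearts, with a log2 fold change of −0.17 and an adjusted p of 0.03269 (edgeR's quasi-likelihood test, p adjusted after Benjamini and Hochberg). With the atrial score in the fit Txn2 was at −0.11 with an adjusted p of 0.4675 in edgeR's quasi-likelihood test. The cytosolic Txn1 (−0.02), the reductases Txnrd1 (0.03) and Txnrd2 (−0.04) and the sulfiredoxin Srxn1 (−0.10), which rescues overoxidised peroxiredoxins, did not pass.

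Of 16 glutathione enzymes 1 was called: Gpx4, which reduces lipid peroxides in membranes, was lower with 241.5 ± 12.48 CPM in training and 274.5 ± 11.85 CPM in sedentary hearts (−0.18). Gpx4 lost its call with a gene length trend removed (−0.12), with the atrial score in the fit (−0.13) and without training heart 3 (−0.18). Gpx1 (0.15) and the secreted Gpx3 (0.28) did not pass. None of the 6 genes of copper supply was called, among them Ccs, the copper chaperone of Sod1 (0.10). Of 11 genes of NADPH supply 1 was called, the malic enzyme Me1 (−0.18). Me1 lost its call with library totals (−0.13), with the atrial score in the fit (−0.20) and without sedentary heart 3 (−0.17).

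No gene of the 11 regulators was called, and Nfe2l2, which encodes NRF2, was at 0.01 and its inhibitor Keap1 at 0.06. Of 15 tested NRF2 targets Me1 was lower and Osgin1 higher (4.754 ± 0.293 CPM against 3.717 ± 0.5382 CPM), while Nqo1 (−0.13) and Hmox1 (0.02) did not pass. Among 14 sources of superoxide and peroxide, Xdh, the xanthine dehydrogenase that can act as an oxidase, was lower with 121.2 ± 9.462 CPM in training and 157.9 ± 11 CPM in sedentary hearts, with a log2 fold change of −0.38 and an adjusted p of 0.008741 (edgeR's quasi-likelihood test, p adjusted after Benjamini and Hochberg). The oxidase subunits Nox4 (0.21) and Cybb (0.05) did not pass.

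Peroxisomes, where catalase resides, were covered by 21 genes, of which 2 were called lower (9.524%), beside 4.26% of all tested genes. Pex11a, which acts in peroxisome division, was at 18.76 ± 1.255 CPM in training and 22.38 ± 1.403 CPM in sedentary hearts (−0.25), and Pex19, a chaperone for peroxisomal membrane proteins, had a log2 fold change of −0.16. Of the 21 genes 13 were below 0, beside 49.9% of all tested genes, and their median was −0.03. Of 12 genes of mitochondrial content 9 were below 0 and Cycs, cytochrome c, was called lower (−0.26), while the regulator Ppargc1a (−0.29, standard error 0.17) did not pass. Leaving out 1 heart ended the call of Osgin1 for 8, of Cycs for 7 and of Pex19 for 6 of the 10 hearts. With the atrial score in the fit Xdh was the only one of the 8 called genes of these lists that passed (−0.50), and with library totals Me1, Pex19 and Cycs did not pass.

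**Figure D5:**
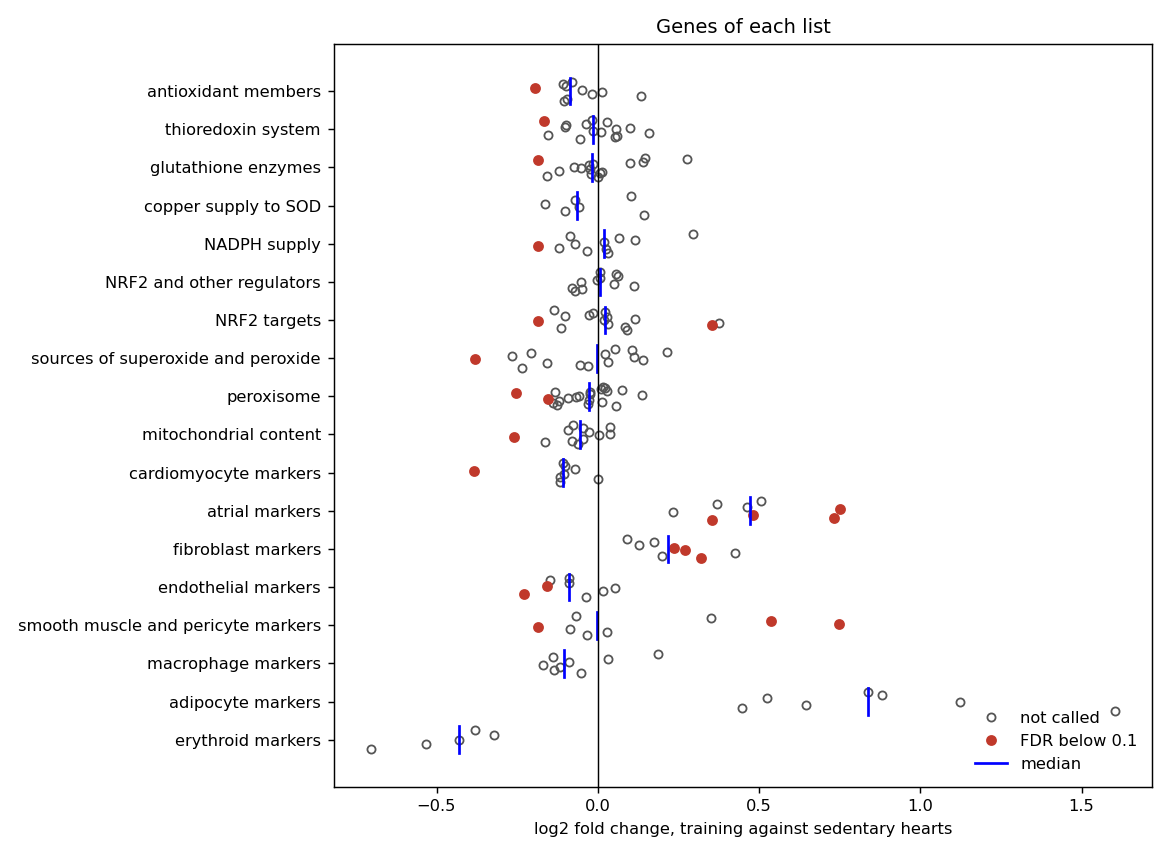
Log2 fold changes, training against sedentary hearts (horizontal axis), of the tested genes of each list (rows), filled red where they passed an FDR of 0.1, with the median as a bar. Medians of the 9 pathway lists lie between −0.06 and 0.02, with single genes further out. The median of the 10 antioxidant genes is −0.09, beside −0.11 for cardiomyocyte, −0.09 for endothelial and −0.10 for macrophage markers. Erythroid markers have a median of −0.43 and smooth muscle and pericyte markers one of −0.003. The atrial, fibroblast and adipocyte markers lie above 0.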

How the data were processed

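RNA of whole hearts of 5 training and 5 sedentary mice was read as 1 directional poly-A library per heart, with single reads and in 1 sequencing pool. The authors deposited raw counts per gene of uniquely mapped reads, made with STAR 2.7.10a on GRCm39, for either strand and for both. They also deposited expected counts, TPM and gene lengths of every heart from RSEM 1.3.3, whose strand setting is not stated in the sources used here. Nothing was pooled.

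The reverse-strand counts, between 94.92% and 95.65% of the stranded counts, were used here. Genes were kept with filterByExpr, scaled by TMM and tested with edgeR 4.0.16 (quasi-likelihood F test, no covariate), with Benjamini-Hochberg adjustment over all 15454 tested genes and a false discovery rate (FDR) of 0.1, the threshold of the study. The study's own tool, DESeq2 1.42.0, was run as an alternative, as were other scalings, filters, strands, a mouse-number block, a gene length trend, an atrial marker covariate and leaving out each heart. Expected counts were rounded for their alternative. TPM served to compare levels between genes, and group means on that scale were given without a test. The scripts were tested on simulated data.

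The count tables also list multimapping reads (17.9% to 19.21%) and reads that fall on no gene (4.151% to 4.886%), which entered neither library sizes nor tests. Symbols and positions came from GENCODE M39, which held 56017 of the 56748 identifiers. Promoter windows are RefSeq's, from a table of build GRCm38.p6, placed on GRCm39 by exact match.

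The rule for the 10 genes uses no measured value, but these genes and the lists were put forward with earlier results of these data known. All 10 genes are named. From the other lists, genes past the FDR and a few genes whose role touches a member are named, and for likeness the 3 genes with the highest correlation with Cat once genes under a mean of 1 CPM were set aside. The labels do not say more of the mice than 1 library each, so p-values measure the spread between these hearts.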

Additional observations from a re-analysis of the deposited data

Results flagged for a closer look

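In 3 of 36 groups of 5 hearts looked at, 1 heart stood far from the other 4 by Dixon's criterion, where chance gives about 1 in 20 groups. Sod2 was at 486.6 CPM in training heart 1, where the other training hearts lay between 439.6 and 452.5 CPM. Cycs was at 139 CPM in the same heart, where the others lay between 104.3 and 113.3 CPM. Prdx6 was at 192.3 CPM in sedentary heart 2, where the others lay between 171.4 and 176.4 CPM. The cause was not tested.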

How the results depend on the processing

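Cat kept its direction under every alternative run and lost its call under 2, library totals (−0.14) and the atrial covariate (−0.21). The members called numbered 2 with DESeq2, 0 with library totals and 0 with the atrial covariate, and between 1 and 3 with 1 heart left out. DESeq2 called 1473 genes, 11.28% of those it gave an adjusted p. Library totals called 8.852% of all tested genes and the atrial covariate 0.2135%. With 1 heart left out that share lay between 3.286% and 9.575%. The alternative without training heart 1 and sedentary heart 1 together was chosen after seeing the data and called 4 members, and 16 genes of the other lists against 8. Calls over all tested genes rose as well, to 1446 (9.363%) against 1084 (7.01%). All called genes numbered 33 with the atrial covariate, 505 at an FDR of 0.05, and between 512 (without training heart 4 or sedentary heart 3) and 1490 (without sedentary heart 1) with 1 heart left out. Genes called in the other lists numbered 1 with the atrial covariate, 5 at an FDR of 0.05, and between 4 and 12 with 1 heart left out. The median of the members was −0.035 with library totals, −0.039 with the length trend removed and between −0.10 and −0.06 with 1 heart left out. Small values changed sign: Prdx1 to 0.0028 and Prdx3 to 0.035 with library totals, Prdx3 to 0.022 with the atrial covariate and to 0.0059 without sedentary heart 2, Prdx2 to −0.02 without training heart 1 and to −0.0035 without sedentary heart 5, and, without both hearts 1, Prdx2 to −0.022 and Sod3 to 0.040. With hearts left out, Prdx2 ranged from −0.022 to 0.035, Prdx3 from −0.054 to 0.0059 and Sod3 from −0.15 to 0.040. The causes were not tested.

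The labels number the mice of either group alike, with nothing to say that a number pairs them. Same-numbered hearts correlated between −0.10 and 0.16 and 1 of 5 correlated best with its own number. The fit with the mouse number as a replicate block called 1137 genes and 1 member, Cat (−0.19, adjusted p = 0.053 in edgeR's quasi-likelihood test).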

Other observations

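Nnt, the mitochondrial transhydrogenase that makes NADPH for glutathione and thioredoxin reduction, was at 1.396 ± 0.1379 CPM in training and 1.136 ± 0.412 CPM in sedentary hearts (SD, n = 5 each). The substrain of the C57BL/6 mice, which the study bought from Charles River, is not given in the sources used here. C57BL/6J mice are known to carry a deletion in this gene. The cause of the low level was not tested.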
